A study of Mus musculus with 3 samples.

Results

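The nuclear genes of mitochondrial oxidative phosphorylation were followed in ribosome-bound RNA from mouse brain after a blocked artery. Members were taken by symbol, as every listed gene that begins with Nduf, Uqcr, Cox4 to Cox8 or Atp5, together with Sdha, Sdhb, Sdhc and Sdhd. This gave 92 of the 16610 genes in the table. They comprised 43 genes of complex I, 4 of complex II, 8 of complex III, 20 of complex IV and 17 of complex V. The patterns also took in genes that do not encode structural subunits, namely 7 complex I assembly factors (Ndufaf1 to Ndufaf7), the supercomplex factor Cox7a2l, the paralog Ndufa4l2, and Atp5s and Atp5sl, which are Dmac2l and Dmac2 in RefSeq. The other 81 were counted as structural subunits, with Ndufa4 placed in complex IV. No row with the mt- prefix of mitochondrial DNA genes was listed, so the values below are of nuclear transcripts.

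The groups were the left hemisphere of mice with middle cerebral artery occlusion for 1 h (MCAO hemisphere), the right hemisphere of mice with MCAO (contralateral) and the right hemisphere of mice without MCAO (control). Mice were killed after 3 days, and the middle section of the hemisphere was used. RNA was isolated by RiboTag pull-down, which precipitates an epitope-tagged ribosomal protein with the transcripts being translated. The labels name neither the Cre driver of the tag nor the strain or age, and the series title speaks of astrocytes. Each group was 1 library that pooled 3 animals and repeated precipitations, so differences could not be set against a spread between replicates, and p-values are not given.

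The recovered depth was 25930258 reads in the MCAO hemisphere, 33886604 in the contralateral library and 31833456 in the control. All 14 astrocyte markers and all 13 neuron markers were listed, and their normalised read counts summed to 570706 and 222905 in the MCAO hemisphere, 553261 and 226976 in the contralateral library and 525853 and 254718 in the control. The libraries thus held transcripts of several cell types, and fewer cells of a type cannot be told apart from less RNA per cell. Gfap, the filament protein of reactive astrocytes, had 76049 normalised counts in the MCAO hemisphere, 12202 in the contralateral library and 5903 in the control. Without Gfap the other 13 astrocyte markers summed to 494657 in the MCAO hemisphere, 541060 in the contralateral library and 519950 in the control, so the higher sum in the MCAO hemisphere rested on Gfap. Of the 14 markers 5 had negative log2 differences in the MCAO hemisphere against the control, among them the glutamate transporter genes Slc1a2 at -0.42 and Slc1a3 at -0.53, and the median was 0.23. The contralateral library also held sperm genes. Of 15 male germ cell markers, Odf2 had 1175 normalised counts in the MCAO hemisphere, 3401 in the contralateral library and 1111 in the control, and the other 14 summed to 68.9 in the MCAO hemisphere, 11321 in the contralateral library and 87.3 in the control. This library thus holds transcripts that its brain label does not account for. Their source was not tested, and a mix-up or admixture of material cannot be told apart from other sources, which limits every contralateral value below. The MCAO hemisphere against the control is the comparison whose values do not use that library. The filter on low values takes the mean of all 3 libraries, however, so the set of genes counted there does depend on it. Left and right cannot be told apart from occlusion, since no left hemisphere without MCAO was among the libraries.

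Oxidative phosphorylation passes electrons from NADH and succinate through complexes I to IV to oxygen, and complex V uses the resulting proton gradient to make ATP. Some of the subunits are encoded by mitochondrial DNA and made on mitochondrial ribosomes. All the others are encoded by nuclear genes and translated in the cytosol, where tagged ribosomes can be bound. Astrocytes are known for strong glycolysis and neurons for reliance on respiration, and brain ischaemia limits respiration in the territory of the blocked vessel.

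The 92 genes together held 1.4% of all recovered reads in the MCAO hemisphere, 1.35% in the contralateral library and 1.23% in the control. The 95% Clopper-Pearson intervals were 1.396% to 1.405%, 1.346% to 1.354% and 1.229% to 1.237% in that order of libraries. Intervals here and below describe counting error alone, because such reads carried no molecular identifiers and need not be independent molecules. The share was lowest in the control for complexes I, III, IV and V. It was 0.203% for complex IV in the MCAO hemisphere, 0.21% in the contralateral library and 0.162% in the control. Complex II did not share this order, with 0.105% in the MCAO hemisphere, 0.0998% in the contralateral library and 0.104% in the control.

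Differences were taken as log2 of the normalised count plus 5, over 14906 genes with a mean of at least 20 in the 3 libraries. Of the members 91 passed, and Cox8b, a heart and muscle form of a complex IV subunit, did not. Between the MCAO hemisphere and the control the median difference of the 91 was 0.23, against 0.00 over all tested genes. Positive differences were found in 80 of the 91, beside 48.8% of all tested genes. Of the 91 members 39 (42.9%) were higher by 25% or more in the MCAO hemisphere, beside 19.6% of all tested genes, and 0 were lower by 20% or more, the same step downward, beside 16.4%. At 1.5-fold, 2 members (2.2%) were higher, beside 9.16% of all genes, and 0 lower, beside 5.18%. The differences of this family were thus frequent and small, and 0 members were higher at 2-fold, beside 4.12% of all genes.

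**Figure D1:**
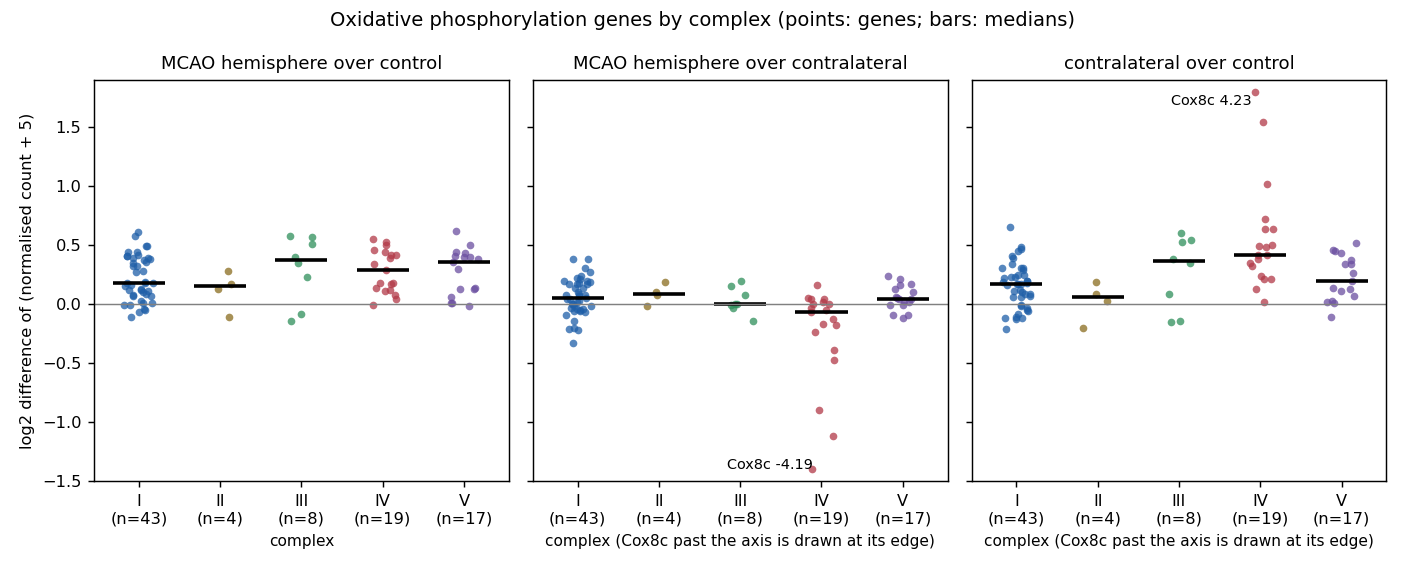
Log2 difference of each member (points, with the number per complex under the axis) in the 3 comparisons, with the median of each complex as a black bar. Differences from the control lie mostly above 0, with medians of 0.15 to 0.37 in the MCAO hemisphere, and those between the MCAO hemisphere and the contralateral library lie around 0; Cox8c lies past the axis, at -4.19 and 4.23.

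Complex I takes electrons from NADH. Its 7 nuclear core subunits carry the flavin and the iron-sulphur clusters, and 29 further listed subunits surround this core. The core genes differed little between libraries, with a median of 0.07 in the MCAO hemisphere against the control. Of them 0 of 7 were past the 25% step in any of the 3 comparisons. Of all tested genes 11.0% to 19.6% were past it, by comparison and direction. A count over 7 genes is not read as a result. Ndufs1, the largest iron-sulphur subunit, had 6512 normalised counts in the MCAO hemisphere, 5796 in the contralateral library and 6687 in the control. Ndufv1, which binds NADH and flavin, had 9210 in the MCAO hemisphere, 7792 in the contralateral library and 8527 in the control. Both were lowest in the contralateral library, with ratios over the control of 0.867 for Ndufs1 (0.838 to 0.897) and 0.914 for Ndufv1 (0.887 to 0.941).

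Further core genes lay close to the control as well. Ndufs3 had 3759 normalised counts in the MCAO hemisphere, 3645 in the contralateral library and 3794 in the control, and Ndufv2 had 3816 in the MCAO hemisphere, 3959 in the contralateral library and 3789 in the control. Ndufs7, which holds the last iron-sulphur cluster before the quinone, had 3751 normalised counts in the MCAO hemisphere, 3247 in the contralateral library and 3294 in the control. Ndufs8 had 2453 in the MCAO hemisphere, 2449 in the contralateral library and 2188 in the control. Of the 7 core genes Ndufs7 was the farthest above the control in the MCAO hemisphere, at 1.14-fold (1.08 to 1.2).

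The supernumerary subunits stood higher in both libraries of the MCAO animals. Against the control their log2 differences had a median of 0.35 in the MCAO hemisphere and 0.20 in the contralateral library, and 16 of 29 and 7 of 29 were higher by 25% or more. Of all tested genes 19.6% were higher by this step in the MCAO hemisphere and 17.2% in the contralateral library. Ndufb6, a membrane-arm subunit, had 1719 normalised counts in the MCAO hemisphere, 1425 in the contralateral library and 1122 in the control. Its ratio was 1.53 over the control (1.42 to 1.66) and 1.21 over the contralateral library (1.12 to 1.3). Ndufc1, another membrane-arm subunit, had 1157 in the MCAO hemisphere, 887 in the contralateral library and 772 in the control, and was 1.3-fold the contralateral value (1.19 to 1.43). Ndufb2 had 882 in the MCAO hemisphere, 676 in the contralateral library and 692 in the control. Ndufb2 and Ndufc1 were the 2 members that exceeded the contralateral value by 25% or more, beside 12.3% of all tested genes.

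Ndufs5, a subunit that faces the intermembrane space, had another order. It had 1532 normalised counts in the MCAO hemisphere, 1927 in the contralateral library and 1223 in the control, and was highest in the contralateral library at 1.58-fold the control (1.47 to 1.69). Not all supernumerary genes were higher. Ndufa10 had 5159 in the MCAO hemisphere, 5375 in the contralateral library and 5567 in the control, and Ndufa9 had 5663 in the MCAO hemisphere, 5463 in the contralateral library and 5953 in the control. Ndufb10 had 3029 in the MCAO hemisphere, 3477 in the contralateral library and 3057 in the control. These 3 were the supernumerary genes below the control in the MCAO hemisphere. The 7 assembly factors, which help build complex I and are not part of it, had medians of 0.08 in the MCAO hemisphere and 0.09 in the contralateral library against the control. Of them 0 of 7 were higher by the 25% step, beside 19.6% and 17.2% of all tested genes. With 7 genes this count is not read as a result.

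Complex II, which also works in the tricarboxylic acid cycle, has 4 subunits, all nuclear. Sdha, the flavin subunit, had 19379 normalised counts in the MCAO hemisphere, 18277 in the contralateral library and 20950 in the control. Sdhb, the iron-sulphur subunit, had 4707 in the MCAO hemisphere, 4389 in the contralateral library and 4292 in the control. The membrane anchors were Sdhc, with 4645 in the MCAO hemisphere, 4082 in the contralateral library and 3823 in the control, and Sdhd, with 3230 in the MCAO hemisphere, 3265 in the contralateral library and 2870 in the control. Sdha was thus below the control in both libraries of the MCAO animals, with ratios of 0.925 in the MCAO hemisphere (0.906 to 0.944) and 0.872 in the contralateral library (0.856 to 0.889). Sdhc was the highest relative to the control, at 1.22-fold (1.16 to 1.27) in the MCAO hemisphere. None of the 4 reached the 25% step, or 20% downward, in any of the 3 comparisons. Of all tested genes 11.0% to 19.6% did, by comparison and direction, and a count over 4 genes is not read as a result.

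Complex III hands electrons to cytochrome c. Its genes were divided into large and small subunits after the values were seen. Uqcrc1, a large matrix-side subunit, had 13182 normalised counts in the MCAO hemisphere, 12501 in the contralateral library and 13897 in the control. Its partner Uqcrc2 had 10370 in the MCAO hemisphere, 10349 in the contralateral library and 11424 in the control. Both were slightly lower than in the control in both libraries of the MCAO animals, and Uqcrc2 was at 0.908-fold (0.883 to 0.933) in the MCAO hemisphere. Uqcrfs1, the Rieske iron-sulphur protein, had 5663 in the MCAO hemisphere, 5116 in the contralateral library and 4816 in the control.

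All 5 small subunits were 25% or more above the control in both libraries of the MCAO animals. Of all tested genes 19.6% were higher by this step in the MCAO hemisphere and 17.2% in the contralateral library. Uqcr10 had 2572 normalised counts in the MCAO hemisphere, 2598 in the contralateral library and 1717 in the control. It was 1.5-fold the control after rounding in the MCAO hemisphere (1.41 to 1.6), just under the 1.5-fold call. In the contralateral library it was 1.51-fold the control (1.43 to 1.61), and the ratio of the MCAO hemisphere to the contralateral library was 0.99 (0.936 to 1.05). Uqcr11 had 2654 in the MCAO hemisphere, 2318 in the contralateral library and 1784 in the control. Uqcrq had 2241 in the MCAO hemisphere, 2293 in the contralateral library and 1575 in the control, and Uqcrb, which supports the quinone site, had 1749 in the MCAO hemisphere, 1745 in the contralateral library and 1369 in the control. Uqcrh, the hinge protein that contacts cytochrome c1, had 4910 in the MCAO hemisphere, 5400 in the contralateral library and 3726 in the control. The median log2 difference of the 5 was 0.51 in the MCAO hemisphere and 0.53 in the contralateral library against the control, and -0.01 between the MCAO hemisphere and the contralateral library.

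**Figure D2:**
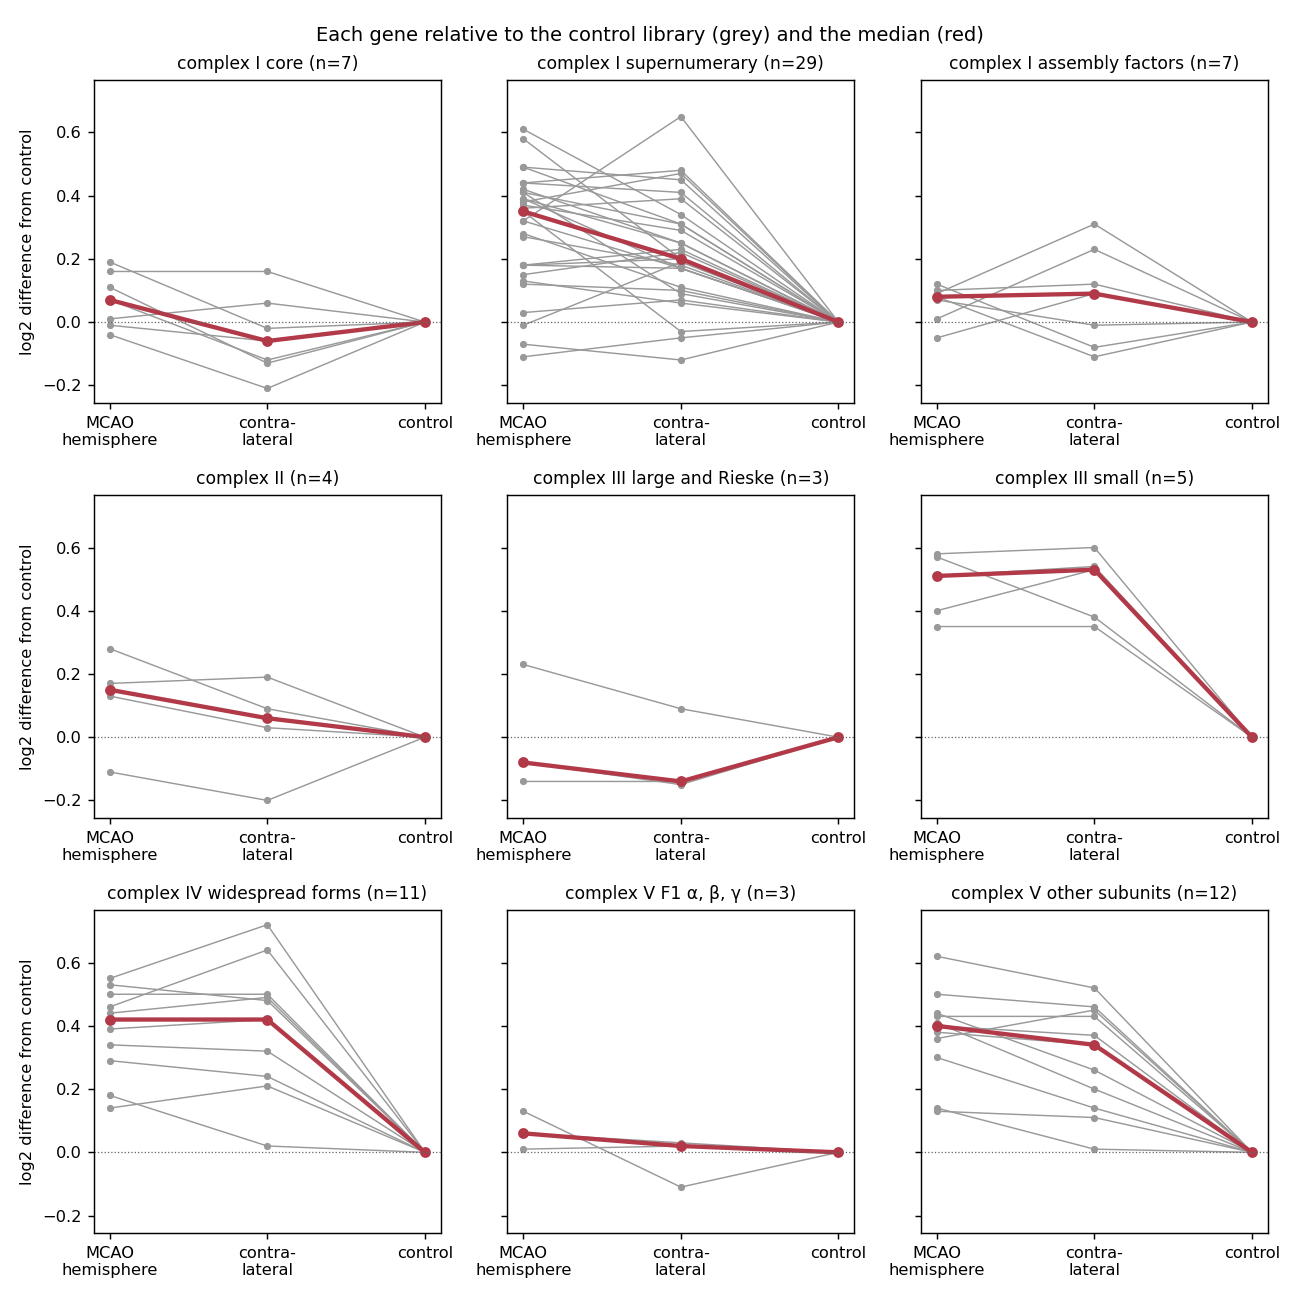
Log2 difference from the control of each gene (grey) and the group median (red) in the MCAO hemisphere, the contralateral library and the control, which is 0 by construction. The complex I core, Uqcrc1 and Uqcrc2 of complex III and the F1 α, β and γ subunits stay near 0, and Uqcrfs1 is at 0.23 in the MCAO hemisphere. The small complex III subunits and most supernumerary subunits lie above 0 in both libraries of the MCAO animals. Ndufa9 and Ndufa10 lie below 0 in both.

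Complex IV, cytochrome c oxidase, reduces oxygen. Its catalytic centre is encoded by mitochondrial DNA, so that the nuclear genes here are supporting subunits, several of which exist as widespread and tissue forms. The 11 widespread forms had a median log2 difference from the control of 0.42 in the MCAO hemisphere and also 0.42 in the contralateral library. In that order 8 of 11 and 7 of 11 were higher by 25% or more, beside 19.6% and 17.2% of all tested genes. Between the MCAO hemisphere and the contralateral library the median was 0.00 and 0 of 11 were past this step in either direction. Of all tested genes 12.3% were higher and 13.5% lower. Cox7b had 3383 normalised counts in the MCAO hemisphere, 3805 in the contralateral library and 2302 in the control. It was 1.47-fold the control in the MCAO hemisphere (1.39 to 1.55) and 1.65-fold in the contralateral library (1.57 to 1.74). Cox7a2 had 2978 in the MCAO hemisphere, 3379 in the contralateral library and 2165 in the control, and was 1.56-fold the control in the contralateral library (1.48 to 1.65).

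The other widespread forms followed the same order of control below both others. Cox7c had 2880 normalised counts in the MCAO hemisphere, 2782 in the contralateral library and 1987 in the control. Cox5b had 3035 in the MCAO hemisphere, 3032 in the contralateral library and 2141 in the control, Cox6c had 4155 in the MCAO hemisphere, 4311 in the contralateral library and 3062 in the control, and Cox6b1 had 4723 in the MCAO hemisphere, 4835 in the contralateral library and 3614 in the control. Ndufa4, once assigned to complex I and since placed in complex IV, had 5260 in the MCAO hemisphere, 5250 in the contralateral library and 3927 in the control. Cox6a1 had 6595 in the MCAO hemisphere, 6513 in the contralateral library and 5224 in the control and Cox8a had 6640 in the MCAO hemisphere, 6447 in the contralateral library and 5448 in the control. Cox4i1, which carries a nucleotide-binding site, had 13259 in the MCAO hemisphere, 13950 in the contralateral library and 12019 in the control, and Cox5a had 3695 in the MCAO hemisphere, 3316 in the contralateral library and 3259 in the control. These last 2 were the closest to the control in the MCAO hemisphere, with ratios of 1.1 for Cox4i1 (1.08 to 1.13) and 1.13 for Cox5a (1.08 to 1.19). The supercomplex factor Cox7a2l had 5165 in the MCAO hemisphere, 5017 in the contralateral library and 4571 in the control.

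A different pattern belonged to 3 complex IV forms known from testis. Cox8c had 1.18 normalised counts in the MCAO hemisphere, 107 in the contralateral library and was listed at the minimum of 1 in the control. These stood for 1 read in the MCAO hemisphere, 121 in the contralateral library and 0 or 1 in the control. Taking a floor of 3 control reads, the contralateral value of Cox8c was at least 36.9-fold higher than that of the control. Cox7b2 had 35.3 in the MCAO hemisphere, 82.5 in the contralateral library and 25.2 in the control, and was 3.28-fold the control in the contralateral library (2.1 to 5.28). Cox6b2 had 72.9 in the MCAO hemisphere, 140 in the contralateral library and 66.8 in the control, and was 2.1-fold the control there (1.57 to 2.83). In the MCAO hemisphere the intervals of Cox7b2 (0.801 to 2.47) and Cox6b2 (0.762 to 1.56) against the control included 1. Cox8c passed the filter on low values through the contralateral library alone.

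Other respiratory genes known from male germ cells were high in the same library. Cyct, the testis cytochrome c, was listed at 1 in the MCAO hemisphere, stood at 18.6 normalised counts in the contralateral library and was listed at 1 in the control, so that the contralateral value was at least 6.41-fold higher on the same floor. Cyct is in the table through the contralateral library alone and was under the filter on low values. That it was highest there is thus not a separate result. Slc25a31, a testis ADP/ATP carrier, had 12.9 in the MCAO hemisphere, 47.9 in the contralateral library and 24.2 in the control. The male germ cell list moved with these genes. Most of its genes passed the filter on low values through the contralateral library, so no count of them is given. The part of these transcripts in the other contralateral values was not tested. In the MCAO hemisphere, where the 14 germ cell markers other than Odf2 summed to 68.9 normalised counts, beside 87.3 in the control, the widespread forms also had a median of 0.42. An equal median in another library does not show what made up the contralateral median, which was not tested.

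**Figure D3:**
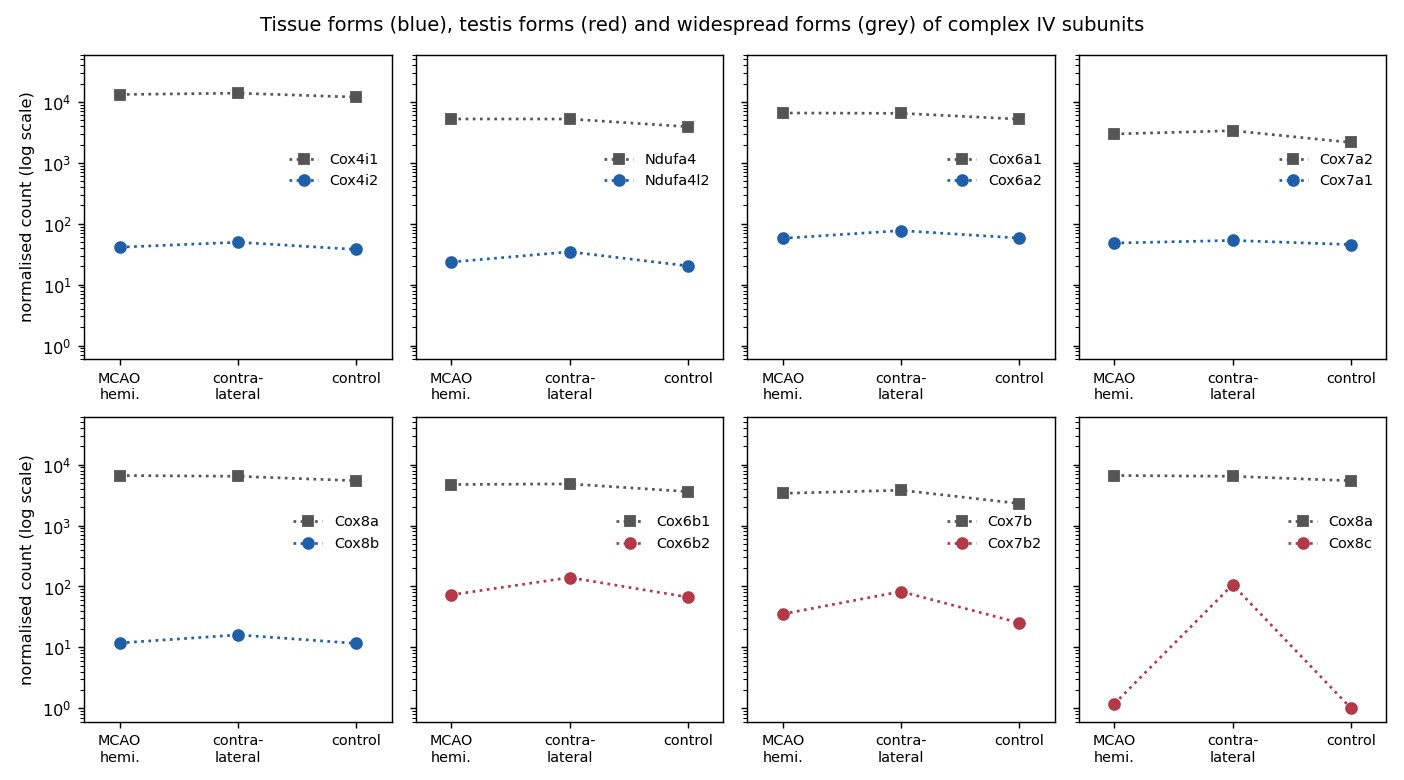
Normalised counts (log scale) in the MCAO hemisphere, the contralateral library and the control of complex IV genes, with the widespread form in grey, tissue forms in blue and testis forms in red. The testis form Cox8c is at 107 in the contralateral library and at about 1 in both others, whereas the widespread forms plotted are at 2165 or more in all 3.

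Tissue forms known outside testis were near the lower limit of the table. Cox4i2, a form of lung and of brain pericytes, had 41.2 normalised counts in the MCAO hemisphere, 49.7 in the contralateral library and 37.8 in the control. Ndufa4l2, a hypoxia-inducible paralog of Ndufa4 also known from pericytes, had 23.5 in the MCAO hemisphere, 34.6 in the contralateral library and 20.3 in the control. Cox6a2, known from heart, muscle and parvalbumin interneurons, had 57.6 in the MCAO hemisphere, 77.2 in the contralateral library and 58.1 in the control. The muscle forms Cox7a1 and Cox8b had 48.2 and 11.8 in the MCAO hemisphere, 53.2 and 16.0 in the contralateral library, and 45.5 and 11.6 in the control. The intervals of all 5 against the control included 1 in both libraries of the MCAO animals, so that a difference was not detectable at this depth. The hypoxia-linked genes Cox4i2 and Ndufa4l2 had ratios over the control of 1.09 (0.67 to 1.77) and 1.16 (0.595 to 2.24) in the MCAO hemisphere. The 10 mural cell markers, which include pericyte genes, summed to 4785 normalised counts in the MCAO hemisphere, 3989 in the contralateral library and 4664 in the control. Without Cspg4, which oligodendrocyte precursors also express, the sums were 3509 in the MCAO hemisphere, 3535 in the contralateral library and 4110 in the control, and the part of these cells in the values was not tested.

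Complex V, the ATP synthase, holds its catalytic sites in the F1 head on the α and β subunits. The division of complex V was made after the values were seen. The genes of the α, β and γ subunits differed little. Atp5a1 (α) had 38171 normalised counts in the MCAO hemisphere, 37457 in the contralateral library and 36602 in the control. Atp5b (β) had 64965 in the MCAO hemisphere, 55167 in the contralateral library and 59449 in the control, and Atp5c1 (γ) had 8306 in the MCAO hemisphere, 8366 in the contralateral library and 8253 in the control. Atp5b was lowest in the contralateral library, at 0.928-fold of the control (0.918 to 0.938), and the MCAO hemisphere exceeded the contralateral library 1.18-fold (1.16 to 1.19).

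The other 12 subunits of complex V had median log2 differences from the control of 0.40 in the MCAO hemisphere and 0.34 in the contralateral library. In that order 9 of 12 and 7 of 12 were higher by 25% or more, beside 19.6% and 17.2% of all tested genes. Atp5e, the small ε subunit of the F1 stalk, had 2503 normalised counts in the MCAO hemisphere, 2334 in the contralateral library and 1628 in the control. At 1.54-fold the control (1.44 to 1.64) it had the highest difference of all 91 members in the MCAO hemisphere. Atp5d, the δ subunit, had 5224 in the MCAO hemisphere, 4501 in the contralateral library and 3927 in the control. Atp5j2, a membrane subunit, had 3123 in the MCAO hemisphere, 3034 in the contralateral library and 2203 in the control. The 3 genes Atp5g1, Atp5g2 and Atp5g3 encode the same mature c-ring subunit. Atp5g1 had 2575 in the MCAO hemisphere, 2749 in the contralateral library and 2005 in the control, Atp5g2 had 3198 in the MCAO hemisphere, 2855 in the contralateral library and 2594 in the control, and Atp5g3 had 9654 in the MCAO hemisphere, 9268 in the contralateral library and 7308 in the control. The c-ring genes were thus 1.23-fold to 1.32-fold the control in the MCAO hemisphere. Atp5s and Atp5sl, which the patterns also matched, had 346 and 982 in the MCAO hemisphere, 375 and 1048 in the contralateral library, and 343 and 996 in the control.

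Set directly against the contralateral library, the MCAO hemisphere had a median log2 difference of 0.03 over the 91 members. Positive differences numbered 55, beside 49.7% of all tested genes. Between 20% below and 25% above the contralateral value lay 83 of 91 (91.2%), beside 74.2% of all tested genes. By 20% or more 6 members were lower in the MCAO hemisphere, beside 13.5% of all genes. They were the testis forms Cox6b2, Cox7b2 and Cox8c, the low-level Cox6a2 and Ndufa4l2, and Ndufs5 at 0.795-fold (0.741 to 0.852). At 1.5-fold the 3 testis forms were the only ones lower, beside 7.71% of all genes, and 0 were higher, beside 6.19%. At 2-fold Cox7b2 and Cox8c were lower, beside 4.96%, and 0 were higher, beside 3.18%. The shares of all genes that were lower include germ cell genes high in the contralateral library, and their part was not tested. The complexes had medians of 0.05 (I), 0.09 (II), 0.00 (III), -0.07 (IV) and 0.04 (V). Over the same pair of libraries 12 microglia markers had a median of 1.64 and 8 macrophage markers a median of 2.76, and their part in the members' values was not tested. The 8 striatal neuron markers had a median of -1.41 and the 13 neuron markers one of -0.11.

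The contralateral library set against the control had a median of 0.21 over the 91 members. Positive differences were found in 76, beside 49.4% of all tested genes. By 25% or more 32 (35.2%) were higher, beside 17.2%, and 0 were lower by 20% or more, beside 11.0%. At 1.5-fold 8 (8.79%) were higher, beside 8.43% of all genes, a share close to the background, and 0 lower, beside 2.25%. At 2-fold the 3 testis forms were higher, beside 5.17% of all genes, and 0 were lower, beside 0.362%. These 8 were the 3 testis forms, Ndufa4l2, and Cox7a2, Cox7b, Ndufs5 and Uqcr10. The shares of all genes for this pair include germ cell genes that passed the filter through the contralateral library. In that library 47 genes were listed at 1, against 583 in the MCAO hemisphere and 665 in the control. These shares are thus not a background free of such transcripts, and the part of those transcripts was not tested. Both comparisons with the control share that 1 library, so a value particular to the control pool would appear in both, and a low control pool cannot be told apart from higher MCAO animals.

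Other lists of mitochondrial and protein-synthesis genes were set beside the members. The mitochondrial ribosome had a median log2 difference from the control of 0.24 in the MCAO hemisphere and 0.23 in the contralateral library over 77 genes, with 31 (40.3%) and 19 (24.7%) higher by 25% or more, beside 19.6% and 17.2% of all tested genes. Mrps6 stood apart there, with 2371 normalised counts in the MCAO hemisphere, 1050 in the contralateral library and 621 in the control. The 79 cytosolic ribosomal protein genes past the filter, a list added after the values were seen, had medians of 0.40 in the MCAO hemisphere and 0.30 in the contralateral library, and 59 (74.7%) and 30 (38.0%) were higher by 25% or more, beside the same shares of all genes. These genes have many processed pseudogenes, so their single values are uncertain. Of 38 proteasome genes, also added later, 6 (15.8%) were higher by 25% or more in the MCAO hemisphere and 3 (7.89%) in the contralateral library, both below the shares of all genes, with medians of 0.12 and 0.02. The part of transcript length in these values was not tested. Across the 91 members the difference from the control and the mean normalised count, which is not per length, had a Spearman rho of -0.11 in the MCAO hemisphere and -0.37 in the contralateral library, against -0.1 and -0.21 over all tested genes. The same libraries enter both quantities.

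**Figure D4:**
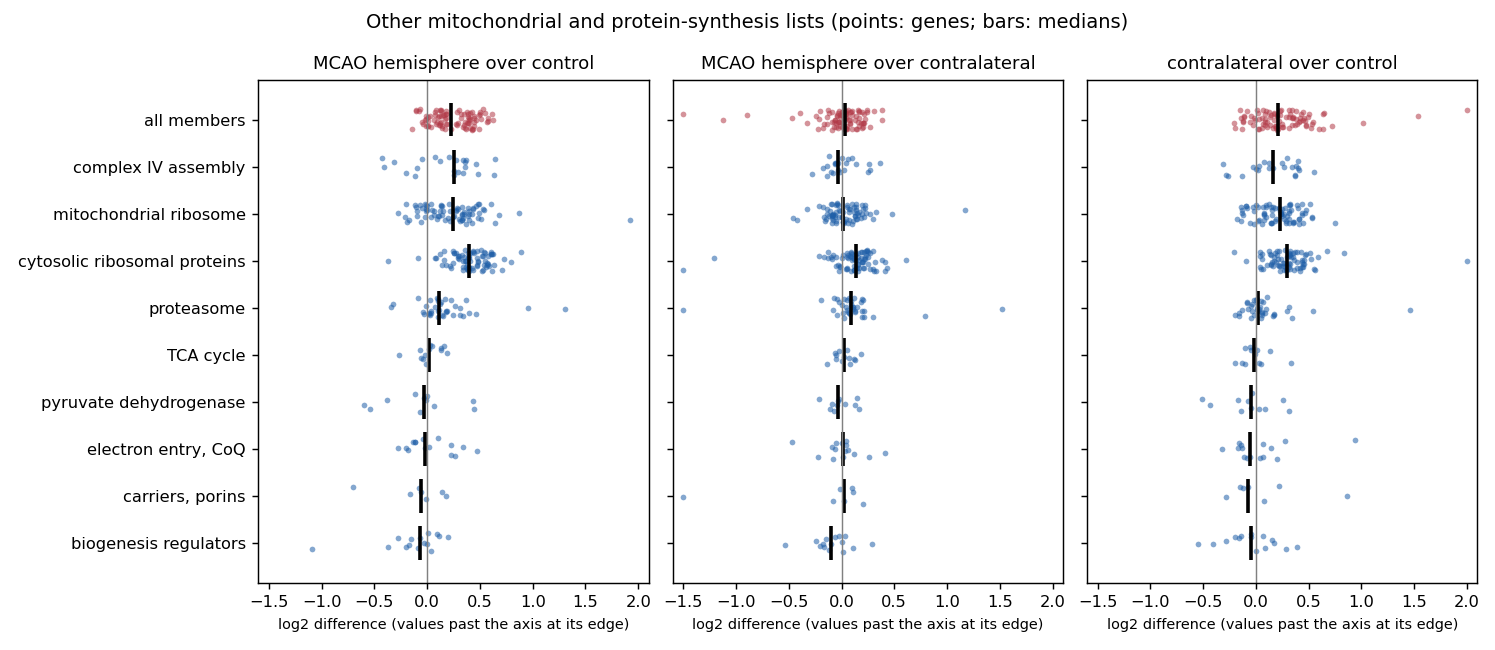
Log2 difference of each gene (points) and the median (bars) in the 3 comparisons for all members and for other mitochondrial and protein-synthesis lists. Members, mitochondrial ribosome and cytosolic ribosomal proteins have medians of 0.21 to 0.40 against the control in both libraries of the MCAO animals, while the TCA cycle, pyruvate dehydrogenase, electron entry, carrier and biogenesis lists have medians between -0.07 and 0.02.

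Genes of enzymes that feed the chain had medians near 0. The 13 tricarboxylic acid cycle genes had a median of 0.02 in the MCAO hemisphere against the control. Of them 0 were past the 25% step or its reverse, beside 19.6% and 16.4% of all tested genes. Ogdh, a subunit of the 2-oxoglutarate dehydrogenase complex, had 10920 normalised counts in the MCAO hemisphere, 11395 in the contralateral library and 13128 in the control. The 11 genes of the pyruvate dehydrogenase list had a median of -0.03, with 2 (18.2%) higher and 3 (27.3%) lower by this step, beside 19.6% and 16.4% of all tested genes. The mitochondrial pyruvate carrier genes Mpc1 and Mpc2 were the 2 higher ones, at 5240 and 1366 in the MCAO hemisphere, 4666 and 1247 in the contralateral library, and 3886 and 1003 in the control. Pdk4, a kinase that inhibits pyruvate dehydrogenase, was lower, with 801 in the MCAO hemisphere, 855 in the contralateral library and 1216 in the control, as was the phosphatase gene Pdp1, with 3704 in the MCAO hemisphere, 3993 in the contralateral library and 5377 in the control.

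Cyc1, a haem-bearing subunit of complex III that the patterns missed, had 6608 normalised counts in the MCAO hemisphere, 6264 in the contralateral library and 6530 in the control. Cycs, somatic cytochrome c, had 4456 in the MCAO hemisphere, 4749 in the contralateral library and 3611 in the control. In the complex IV assembly list 9 of 23 genes (39.1%) were higher in the MCAO hemisphere by this step and 2 (8.7%) were lower, beside 19.6% and 16.4% of all tested genes, with a median of 0.25. Cox16 had 505 in the MCAO hemisphere, 392 in the contralateral library and 323 in the control, and Coa4 had 211 in the MCAO hemisphere, 175 in the contralateral library and 134 in the control. The lists of electron entry and coenzyme Q (15 genes) and of carriers and porins (7 genes) had medians of -0.02 and -0.06. The complex I assembly list outside the patterns (9 genes), the complex II (4), III (6) and V (6) assembly and regulation lists and the translation factor list (8) had 1, 1, 1, 2 and 0 genes higher by this step in that order. Of all tested genes 19.6% were higher, and with lists this short the counts are not read as a result. The complex V list had 1 of 6 genes lower, beside 16.4% of all tested genes, a share close to the background. This gene was Atpaf1, at 882 in the MCAO hemisphere, 966 in the contralateral library and 1161 in the control.

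Regulators of mitochondrial biogenesis had a median of -0.07 in the MCAO hemisphere against the control over 15 genes, with 0 higher and 2 (13.3%) lower by this step, beside 19.6% and 16.4% of all tested genes, so the lower share was no larger than the background. The coactivator gene Ppargc1a had 1467 normalised counts in the MCAO hemisphere, 1432 in the contralateral library and 1903 in the control. It was at 0.771-fold of the control in the MCAO hemisphere (0.717 to 0.828) and 0.752-fold in the contralateral library (0.704 to 0.804). Its relative Ppargc1b had 38.8 in the MCAO hemisphere, 58.6 in the contralateral library and 88.1 in the control, and was at 0.44-fold in the MCAO hemisphere (0.286 to 0.663). Ucp2, an uncoupling protein family member abundant in microglia, had 2325 in the MCAO hemisphere, 1319 in the contralateral library and 1251 in the control, 1.86-fold the control (1.73 to 1.99). AA467197, a paralog of Ndufa4 induced in inflamed cells and outside the patterns, had 24.7 in the MCAO hemisphere, 77.2 in the contralateral library and 2.91 in the control, where 3 reads stood behind it. It was 26.6-fold the control in the contralateral library (8.79 to 131) and 8.5-fold in the MCAO hemisphere (2.54 to 44.5).

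Promoters were read from RefSeq tables for GRCm38.p6, as the 250 bases before each annotated start, which gave 82 promoters of 76 members. The binding letters of NRF1, a factor known for respiratory chain genes, were searched as GCGCA, any 1 base, then GCGC on both strands, the ETS core (used by GABP) as CCGGAAG and the TATA box as TATAAA. The NRF1 letters were in 18.3% of member promoters, beside 3.74% of all 32851 promoters. The ETS letters were in 15.9%, beside 6.91%, and the TATA letters in 8.54%, beside 12.4%. The NRF1 and ETS letters contain CG, and the median count of CG was 15 in member promoters and 6 over all promoters. The part of base composition in these shares was not tested. Some genes have overlapping promoters, as Ndufa5 does, so that the same match can be counted again. Members above the control by 25% or more in the MCAO hemisphere had the NRF1 letters in 15.8% of 38 promoters and the ETS letters in 23.7%. The other tested members had them in 20.9% and 9.3% of 43 promoters. The TATA letters were in 15.8% of the promoters of the higher members (6 promoters) and in 2.33% of the others (1 promoter). A match of letters is a description and not a binding site. Among members named above, Uqcr10 lies at chr11:4701968-4704344 and Cox8c at chr12:102899306-102900534 of the same build.

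The promoters of 3 members are given as examples, 5′ to 3′ on the strand of the gene, with matches to the motifs in capitals. Atp5e (chr2:174464102-174464351, minus strand) and Ndufb6 (chr4:40279422-40279671, minus strand) were the 2 members past 1.5-fold in the MCAO hemisphere against the control, and each held the ETS letters once, on the opposite strand. Sdha (chr13:74350241-74350490, minus strand), below the control in both libraries of the MCAO animals, held the NRF1 letters 3 times. The examples do not tie the letters to a direction. Uqcrc1 and Ndufa9, also below the control in both libraries, held none of the 3 motifs. Ndufb4, at 1.3-fold the control in the MCAO hemisphere, held the NRF1 letters 3 times as well.
Atp5e: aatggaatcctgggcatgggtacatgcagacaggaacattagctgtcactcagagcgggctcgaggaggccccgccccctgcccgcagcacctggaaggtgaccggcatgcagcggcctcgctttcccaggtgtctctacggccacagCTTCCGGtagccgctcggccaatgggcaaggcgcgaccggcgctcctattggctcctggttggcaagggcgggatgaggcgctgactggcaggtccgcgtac
Ndufb6: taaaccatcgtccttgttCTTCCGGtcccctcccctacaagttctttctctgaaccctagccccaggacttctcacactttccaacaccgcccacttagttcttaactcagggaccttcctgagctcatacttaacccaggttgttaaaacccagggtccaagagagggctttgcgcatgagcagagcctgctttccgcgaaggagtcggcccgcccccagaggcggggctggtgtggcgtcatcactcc
Sdha: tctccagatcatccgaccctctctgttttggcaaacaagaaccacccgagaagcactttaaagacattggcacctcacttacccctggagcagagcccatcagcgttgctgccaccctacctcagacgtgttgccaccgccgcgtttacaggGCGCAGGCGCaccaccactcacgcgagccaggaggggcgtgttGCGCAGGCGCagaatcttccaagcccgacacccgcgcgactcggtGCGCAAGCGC

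The testis form Cox7b2 (chr5:71548206-71548455, minus strand) and the widespread form Cox7b (chrX:106015450-106015699, plus strand) are shown as a pair of forms of 1 subunit with different values. The promoters of Cox6b2 (chr7:4753095-4753344, minus strand) and Cox6b1 (chr7:30626115-30626364, minus strand) form the second pair. Cox7b2 held the TATA letters once, on the opposite strand, and Cox6b1 the ETS letters once, also on the opposite strand. In Cox7b and Cox6b2 none of the 3 motifs was found, which says only that these letters are not in this window. Counts of the dinucleotide CG were 9 in Cox7b2 and 5 in Cox7b, and 8 in Cox6b2 and 14 in Cox6b1, against a median of 15 over member promoters and 6 over all promoters.
Cox7b2: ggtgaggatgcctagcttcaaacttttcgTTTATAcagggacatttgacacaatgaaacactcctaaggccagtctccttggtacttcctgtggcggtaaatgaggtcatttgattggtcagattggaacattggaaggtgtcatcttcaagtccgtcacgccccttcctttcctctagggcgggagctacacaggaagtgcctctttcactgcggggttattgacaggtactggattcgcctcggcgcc
Cox7b: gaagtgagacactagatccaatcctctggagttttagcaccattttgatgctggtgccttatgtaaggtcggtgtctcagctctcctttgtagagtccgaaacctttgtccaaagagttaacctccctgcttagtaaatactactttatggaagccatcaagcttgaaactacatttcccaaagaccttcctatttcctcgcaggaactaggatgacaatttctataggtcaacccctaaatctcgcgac
Cox6b2: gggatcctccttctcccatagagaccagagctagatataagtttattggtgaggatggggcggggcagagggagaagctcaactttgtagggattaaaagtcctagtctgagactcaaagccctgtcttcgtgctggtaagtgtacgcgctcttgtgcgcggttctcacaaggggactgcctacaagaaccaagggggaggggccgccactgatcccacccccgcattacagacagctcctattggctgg
Cox6b1: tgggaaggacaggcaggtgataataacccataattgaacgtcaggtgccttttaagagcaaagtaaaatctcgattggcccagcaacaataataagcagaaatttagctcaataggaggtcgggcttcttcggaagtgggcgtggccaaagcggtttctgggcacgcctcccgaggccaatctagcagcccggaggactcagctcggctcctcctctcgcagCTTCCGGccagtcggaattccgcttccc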

How the data were processed

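RNA was measured in 3 libraries of RiboTag pull-downs from mouse brain hemispheres, 1 per group. The values deposited by the authors are a normalised signal, in which the reads of a gene had been scaled by 1 factor for its library. CASAVA 1.8, R 3.3.1, Partek 6.6, DESeq2, HISAT2 2.0.11 and mm10 are named, without role or order, per the submitters' processing notes. How reads shared with pseudogenes or antisense genes were counted is not given in the sources used here, and many respiratory genes have processed pseudogenes, so single values are uncertain to that extent. No gene with a highest value under 10.6 was listed, and the minimum value printed was 1.

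Whole reads were recovered from the step of each column (1.1763 normalised counts per read in the MCAO hemisphere, 0.8873 in the contralateral library, 0.9685 in the control); 99.9% of values above 1 were whole within 0.1 read. A count test on these reads has no residual degrees of freedom with 1 library per group and was not run. Folds are ratios of normalised counts with 95% Clopper-Pearson intervals from the reads. Calls use log2(value + 5), which understates differences of low genes, and a mean of at least 20. The description label of each sample names its column.

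Members, lists and the folds of 1.5, 2 and the smaller step of 25% upward or 20% downward were chosen with earlier results of these data known. Values in full are given for members past 1.5-fold, the extremes of each complex, isoform pairs, complex I core (1 gene is not reported here) and complex II, and for up to 4 genes of the other lists; further members were named after their values were seen, as examples. Alternatives were the pseudocount (1, 20), the filter (none, 100), edgeR 4.0.16 TMM factors, scaling by total recovered reads, centring, the fold and the member rule. The procedure was tested on simulated reads with counting error alone and planted changes larger than the 1.5-fold call. That test did not cover the 25% step or a spread between pools. Of the 92 symbols 89 matched RefSeq directly and 3 through a synonym. Python 3.11.15, scipy 1.17.1 and R 4.3.3 were used.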

Additional observations from a re-analysis of the deposited data

How the results depend on the processing

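Under the alternatives 241 summary values were labelled as kept and 14 as moved. Counts of members have no sign, so a reversal was not possible for them. Centring gave 30 of the 241. It removed medians of -0.003 (MCAO hemisphere against control), -0.002 (MCAO hemisphere against contralateral) and -0.004 (contralateral against control), so those 30 say little. A kept value could still differ: the median over members of 0.23 in the MCAO hemisphere against the control was 0.21 without a filter. For the MCAO hemisphere against the control, 2 members were higher at 1.5-fold, 5 with scaling by total recovered reads, 39 by 25% or more and 0 at 2-fold, and the complex IV median of 0.29 was 0.40 with a mean of at least 100. Against the contralateral library, 3 were lower at 1.5-fold, 6 by 20% or more (2 were higher by 25%), 0 with a mean of at least 100 and 0 without the 3 testis forms. Of the 6 lower by 20%, 1 was left with a mean of at least 100 and 3 without the testis forms. For the contralateral library against the control, 8 were higher at 1.5-fold, 4 with a mean of at least 100, 5 without the testis forms, 32 by 25% or more and 3 at 2-fold. The counts higher by 25% against the control ranged over the pseudocount, filter and scaling alternatives from 37 to 40 in the MCAO hemisphere and from 26 to 37 in the contralateral library. The median over members against the control was 0.31 in the MCAO hemisphere for structural subunits alone, and 0.25 without the testis forms. The settings without the testis forms, with the filter on the 2 compared libraries and for the counts at 25% were chosen after seeing the data. No paired analysis was possible because each group had 1 library. Depth limits the tissue forms, whose values rest on few reads, and the missing replicates limit every other value.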
